A study of Mus musculus with 8 samples.

Results

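Genes that build the mitotic spindle, segregate chromosomes and divide the cell were followed in mouse epidermis treated with a glucocorticoid, in animals with and without REDD1. The set was given as 47 names, which stand for 46 genes because Cdc2a is an older name of Cdk1, and members were taken as the probes whose platform symbol is a listed name. In all, 40 genes were found, carried by 56 of the 25697 probes. Mki67, Ccnb1, Aurkb, Cenpf, Racgap1 and Smc4 had no probe under these symbols and were not analysed here.

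RNA of 8 epidermal samples was hybridized to Illumina MouseRef-8 v2.0 BeadChips, 2 arrays for each of 4 groups: REDD1 KO FA, REDD1 KO vehicle, wild-type FA and wild-type vehicle. All animals were females of 7 weeks in the resting phase (telogen) of the hair cycle, shaved 3 days before treatment. FA is fluocinolone acetonide, a glucocorticoid, applied once to the skin at 2 µg per animal in 200 µl of acetone, and RNA was taken 24 h later. The REDD1 KO animals lack REDD1, the stress-induced inhibitor of mTOR signaling encoded by Ddit4, by replacement of exon 2 with a LacZ/neo cassette. The sources differ on the animals. The study's methods describe B6x129 mice, acetone-treated controls and scraped back epidermis, whereas the sample labels call the controls untreated, the source posterior ear lobe and the strain B6D2. The control arrays are called vehicle here. Arrays come from individual animals, so every group mean rests on 2 values.

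Dividing cells of the resting epidermis lie in its basal layer. On entry into mitosis Cdk1, with a B-type cyclin, phosphorylates many substrates, Aurora and Polo kinases organise the spindle poles and the kinetochores, and the spindle checkpoint holds back the anaphase-promoting complex until every chromosome is attached. Cdc20 then activates that complex, the sister chromatids part, and the central spindle places the cleavage furrow. Transcripts of these genes accumulate together in G2 and M phase and fall after division, so their level in a tissue is often read as a measure of dividing cells. On bulk RNA, fewer dividing cells and less RNA per dividing cell cannot be told apart.

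A probe counts as detected on an array where its detection p-value, the share of negative control beads at least as bright, is under 0.05, and 44.5% to 46.7% of all probes reached this. Ddit4 had log2 intensities of 7.88 and 8.35 in REDD1 KO FA, 7.42 and 7.09 in REDD1 KO vehicle, 10.98 and 11.14 in wild-type FA, and 10.08 and 9.16 in wild-type vehicle epidermis, so every array of the knockout lay below every wild-type array. Markers of basal keratinocytes (11 of 11 tested) had medians between 10.83 and 11.25 on the 8 arrays. Markers of skeletal muscle stood apart on REDD1 KO FA replicate 1, where the median of 7 genes was 10.76, against 4.46 on replicate 2 and 5.26 to 7.40 on the other arrays. Their part in the results below was not tested.

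Of the 56 member probes, 15 were detected on all 8 arrays and 21 on none. Replicate 2 of the vehicle group showed the most members in both genotypes. In REDD1 KO epidermis 19 and 21 of the 40 genes were detected on the FA arrays and 22 and 25 on the vehicle arrays. In wild-type epidermis 22 and 25 genes were detected on the FA arrays and 21 and 26 on the vehicle arrays. The probes of Bub1, Ccnb2, Cenpe, Cks1b, Cks2, Ect2, Hmmr, Kif20a, Nek2, Nuf2, Smc2 and Ube2c were not above background on any array, and those of Ccna2 and Cdca8 were detected on 1 array each. Probes detected on at least 2 arrays were tested, 32 member probes of 26 genes among 13131 probes in all. Where a gene has several probes it is given by the one with the highest mean.

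The pattern shared by most tested members was a gap between the 2 vehicle arrays of each genotype. The per-array median of the 26 genes was 5.0 and 4.99 on the log2 scale in REDD1 KO FA, 5.13 and 5.99 in REDD1 KO vehicle, 5.28 and 5.37 in wild-type FA, and 5.23 and 6.07 in wild-type vehicle epidermis, in the order replicate 1, replicate 2. In both genotypes the second vehicle array was thus the high one, while the FA arrays lay close together. Over all tested probes the per-array median was 6.34 or 6.35 on every array, which quantile normalization brings about. Before background correction and normalization, the median intensity of all probes was 106.9 on wild-type vehicle replicate 2 and 95.9 to 100.6 on the other arrays. The negative controls averaged 99.3 on wild-type vehicle replicate 2 and 90.5 to 94.1 on the others. The part of this in the gap was not tested.

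Replicate 2 exceeded replicate 1 by a median log2 difference of 0.13 over the members in REDD1 KO FA, 0.81 in REDD1 KO vehicle, 0.19 in wild-type FA and 0.87 in wild-type vehicle epidermis. A difference of more than 0.5 in this direction was found for 2, 21, 1 and 20 of the 26 genes in these 4 groups. Among all tested probes the same criterion was met by 6.67%, 4.87%, 4.02% and 7.36%. The filter on detection favours genes that are high on some arrays, so the 40 genes were also taken without it: their median difference was 0.55 in REDD1 KO vehicle and 0.49 in wild-type vehicle, and 0.01 and 0.03 in the FA groups. The 14 genes with their brightest probe detected on all 8 arrays differed by 1.22 and 1.20 between the vehicle arrays of REDD1 KO and wild-type epidermis. Without background correction the 26 genes still differed by 0.32 and 0.40. For 20 of the 26 genes the 2 highest arrays of all 8 were the 2 second vehicle replicates, which held for 4.73% of all tested probes. With 2 arrays a group this gap has no test.

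**Figure D1:**
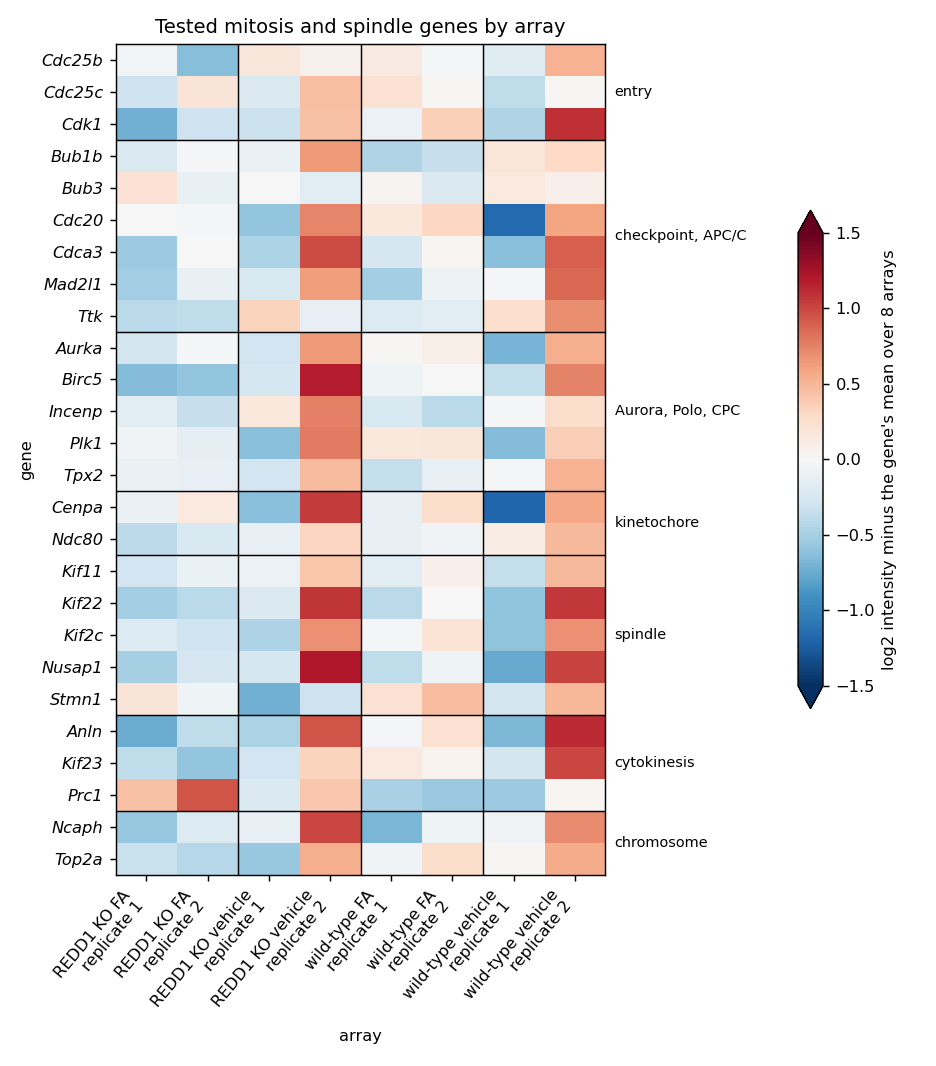
Log2 intensity of the 26 tested genes (rows, by role) on the 8 arrays (columns), as the difference from each gene's mean over all arrays (red, higher; blue, lower; CPC, chromosomal passenger complex; APC/C, anaphase-promoting complex). The columns of vehicle replicate 2 are red for most genes in both genotypes, Prc1 is highest in REDD1 KO FA, and Bub3 varies little.

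**Figure D2:**
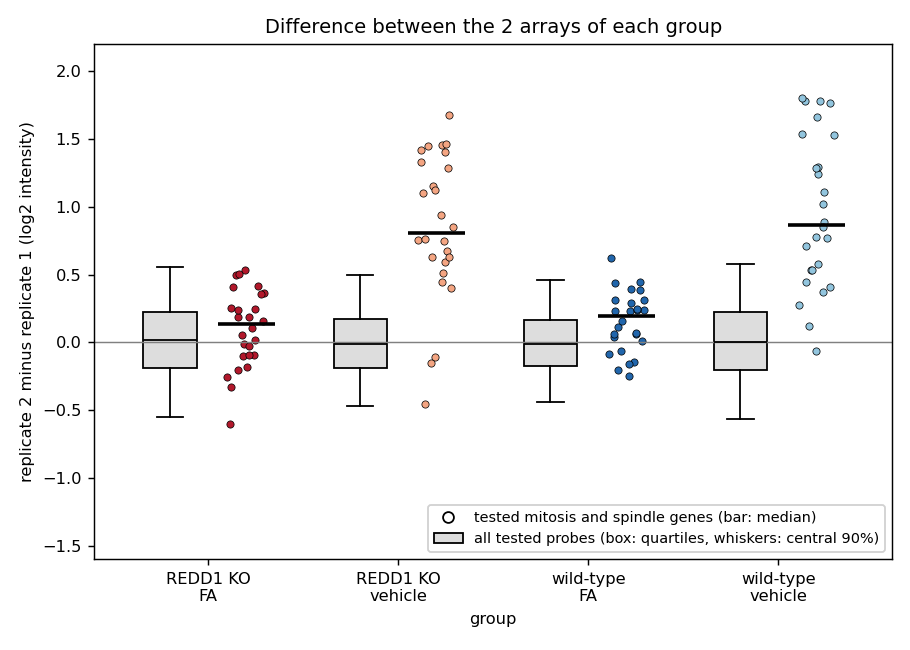
Log2 intensity of replicate 2 minus replicate 1 (vertical axis) in the 4 groups, for all tested probes (grey boxes, quartiles with whiskers around the central 90%) and for the 26 member genes (points, with the median as a bar). The members' medians are 0.81 and 0.87 in the vehicle groups and 0.13 and 0.19 in the FA groups.

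Genes of mitotic entry were near the detection limit. Cdk1, the kinase that drives cells into mitosis, had log2 intensities of 4.26 and 4.67 in REDD1 KO FA, 4.66 and 5.42 in REDD1 KO vehicle, 4.90 and 5.34 in wild-type FA, and 4.53 and 6.07 in wild-type vehicle epidermis. Its highest and one of its lowest values were thus both wild-type vehicle arrays. Cdc25c, a phosphatase that activates Cdk1, had 4.47 and 4.97 in REDD1 KO FA, 4.56 and 5.23 in REDD1 KO vehicle, 5.0 and 4.79 in wild-type FA, and 4.39 and 4.80 in wild-type vehicle epidermis, and its FA and vehicle arrays overlapped in both genotypes. Those of Cdc25b, a phosphatase of the same family, overlapped in wild-type epidermis, and in REDD1 KO epidermis it was lower on both FA arrays, at 5.11 and 4.51, than on the vehicle arrays, at 5.32 and 5.21.

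Genes of the spindle checkpoint and of the anaphase-promoting complex differed among themselves. Cdc20, the activator of the complex, had log2 intensities of 7.08 and 7.07 in REDD1 KO FA, 6.50 and 7.83 in REDD1 KO vehicle, 7.25 and 7.41 in wild-type FA, and 5.93 and 7.69 in wild-type vehicle epidermis. All 4 FA arrays lay between the vehicle arrays of their genotype, and the 2 further tested probes of Cdc20 also had their highest vehicle value on replicate 2. In 1 of these 2 probes the vehicle arrays did not enclose all FA arrays. There REDD1 KO FA replicate 1, at 5.09, lay below both vehicle arrays, and wild-type FA replicate 2, at 6.07, lay above both. Cdca3, which promotes entry into mitosis as part of an ubiquitin ligase, showed the same gap, with 6.36 and 6.89 in REDD1 KO FA, 6.42 and 7.88 in REDD1 KO vehicle, 6.64 and 6.93 in wild-type FA, and 6.27 and 7.80 in wild-type vehicle epidermis. Mad2l1, a subunit of the checkpoint complex that binds Cdc20, had 4.94 and 5.35 in REDD1 KO FA, 5.24 and 6.09 in REDD1 KO vehicle, 4.95 and 5.39 in wild-type FA, and 5.44 and 6.33 in wild-type vehicle epidermis. In wild-type epidermis both FA arrays were below both vehicle arrays, the nearest pair being 0.05 apart, and in REDD1 KO epidermis the groups overlapped. Bub1b, a checkpoint kinase, had 4.84 and 5.03 in REDD1 KO FA, 4.95 and 5.70 in REDD1 KO vehicle, 4.60 and 4.71 in wild-type FA, and 5.24 and 5.36 in wild-type vehicle epidermis. Its FA and vehicle arrays were apart in wild-type and overlapped in REDD1 KO epidermis. Bub3, their partner, which also serves outside mitosis, had no vehicle gap and stayed between 5.83 and 6.26 on the 8 arrays.

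Among the Aurora and Polo kinases and the chromosomal passenger complex, Birc5 (survivin, a subunit of that complex) had a wide gap. Its log2 intensities were 4.94 and 4.99 in REDD1 KO FA, 5.32 and 6.77 in REDD1 KO vehicle, 5.52 and 5.59 in wild-type FA, and 5.22 and 6.33 in wild-type vehicle epidermis. Both REDD1 KO FA arrays lay below both vehicle arrays of that genotype, whereas the wild-type FA arrays lay between theirs. Plk1, the Polo kinase of centrosomes and kinetochores, had 5.06 and 4.96 in REDD1 KO FA, 4.49 and 5.89 in REDD1 KO vehicle, 5.27 and 5.28 in wild-type FA, and 4.46 and 5.48 in wild-type vehicle epidermis, so the first vehicle array was the lowest of each genotype. Aurka, the kinase of the spindle poles, had its highest value on REDD1 KO vehicle replicate 2, at 5.58. Tpx2, its activator, had 4.69 and 4.66 in REDD1 KO FA, 4.50 and 5.27 in REDD1 KO vehicle, 4.43 and 4.66 in wild-type FA, and 4.77 and 5.30 in wild-type vehicle epidermis, so FA was below vehicle on the wild-type arrays and between the vehicle arrays of REDD1 KO epidermis. The further tested probes of Birc5 and that of Cdca3 also had their 2 highest values on the second vehicle replicates. However, 1 of these Birc5 probes and that of Cdca3 were detected on those 2 arrays only. They passed the filter through them, so their order is not independent of the filter. The other Birc5 probe was detected on 3 arrays, those 2 and wild-type FA replicate 2.

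Cenpa, the histone that marks centromeres, was among the brightest members. It had log2 intensities of 8.42 and 8.67 in REDD1 KO FA, 7.90 and 9.57 in REDD1 KO vehicle, 8.40 and 8.79 in wild-type FA, and 7.33 and 9.11 in wild-type vehicle epidermis. The vehicle arrays again enclosed the FA arrays in both genotypes. Ndc80, a microtubule-binding kinetochore protein, had 4.35 and 4.51 in REDD1 KO FA, 4.63 and 5.07 in REDD1 KO vehicle, 4.63 and 4.70 in wild-type FA, and 4.86 and 5.23 in wild-type vehicle epidermis. It was not above background on either REDD1 KO FA array, on REDD1 KO vehicle replicate 1 or on wild-type FA replicate 1, so the order of those arrays is not measured, and it was not called in either genotype (limma adjusted p = 0.292 in REDD1 KO and 0.300 in wild-type epidermis). A second tested probe of Ndc80 stayed between 4.34 and 4.71 and was detected only on replicate 1 of wild-type FA and of wild-type vehicle epidermis. It did not show the gap, as vehicle replicate 2 minus replicate 1 was -0.25 in REDD1 KO and -0.15 in wild-type epidermis. Its log2 fold change with FA was -0.11 in REDD1 KO and 0.06 in wild-type epidermis.

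Among the spindle motors and microtubule proteins the gap was found in 4 of the 5 tested genes at over 0.5 in both genotypes. Kif22, a chromosome-bound kinesin, had log2 intensities of 5.47 and 5.57 in REDD1 KO FA, 5.76 and 7.05 in REDD1 KO vehicle, 5.57 and 5.97 in wild-type FA, and 5.37 and 7.03 in wild-type vehicle epidermis. Nusap1, which bundles spindle microtubules, had 6.01 and 6.25 in REDD1 KO FA, 6.25 and 7.71 in REDD1 KO vehicle, 6.13 and 6.44 in wild-type FA, and 5.75 and 7.53 in wild-type vehicle epidermis. For both genes the second vehicle replicates were the 2 highest arrays. The FA mean minus vehicle replicate 1 was -0.24 for Kif22 and -0.12 for Nusap1 in REDD1 KO epidermis, and 0.40 for Kif22 and 0.54 for Nusap1 in wild-type epidermis. Kif2c, a microtubule-depolymerising kinesin, had 5.19 and 5.09 in REDD1 KO FA, 4.93 and 6.08 in REDD1 KO vehicle, 5.37 and 5.60 in wild-type FA, and 4.78 and 6.08 in wild-type vehicle epidermis, with the FA arrays between the vehicle arrays in both genotypes. Kif11, the motor that separates the poles, ranged from 4.40 to 5.25. Kif11 was not above background on either REDD1 KO FA array, where the lowest detected signals were 4.67 and 4.66. Its REDD1 KO vehicle values were 4.67 and 5.18, so against vehicle replicate 1 no fall was measured. Against the vehicle mean the FA level was at least 1.20-fold lower (limma adjusted p = 0.532), a bound that rests on vehicle replicate 2. Such a bound sets the mean of the vehicle arrays against the dimmest detected signal of each FA array. Stmn1 (stathmin, a tubulin-binding protein that is also expressed outside mitosis) followed another order, with 7.08 and 6.83 in REDD1 KO FA, 6.18 and 6.58 in REDD1 KO vehicle, 7.12 and 7.36 in wild-type FA, and 6.62 and 7.40 in wild-type vehicle epidermis. Both REDD1 KO FA arrays were above both REDD1 KO vehicle arrays for this gene.

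In cytokinesis and chromosome structure the gap was also found. Anln (anillin, a scaffold of the cleavage furrow) had log2 intensities of 6.90 and 7.26 in REDD1 KO FA, 7.16 and 8.58 in REDD1 KO vehicle, 7.63 and 7.87 in wild-type FA, and 6.96 and 8.76 in wild-type vehicle epidermis. This was the largest gap of any member in wild-type vehicle epidermis, 1.80. Kif23, a motor of the central spindle, had 4.77 and 4.56 in REDD1 KO FA, 4.86 and 5.49 in REDD1 KO vehicle, 5.29 and 5.21 in wild-type FA, and 4.87 and 6.16 in wild-type vehicle epidermis. Ncaph, a subunit of condensin I, had 4.55 and 4.91 in REDD1 KO FA, 5.0 and 6.12 in REDD1 KO vehicle, 4.43 and 5.05 in wild-type FA, and 5.06 and 5.83 in wild-type vehicle epidermis. Ncaph was lower on both FA arrays than on both vehicle arrays in each genotype, the nearest arrays being 0.09 apart in REDD1 KO and 0.01 in wild-type epidermis. Top2a, the topoisomerase that untangles chromosomes, had 4.91 and 4.82 in REDD1 KO FA, 4.68 and 5.78 in REDD1 KO vehicle, 5.20 and 5.50 in wild-type FA, and 5.27 and 5.80 in wild-type vehicle epidermis, and its FA and vehicle arrays overlapped in both genotypes.

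The promoters of the members were searched because mitotic genes are known to share the cell cycle genes homology region (CHR), the element bound by the DREAM and MMB complexes. Windows of 300 bases, from 250 before to 50 after the transcription start, were taken from RefSeq (GRCm38.p6) and searched on both strands for TTTGAA and TTTAAA, 2 forms of the CHR, and for CCAAT, the CCAAT box. Of the 46 genes, 38 matched, with 41 windows. TTTGAA was found in 73.2% of these windows and in 17.9% of all 32851 windows, TTTAAA in 22.0% and 13.2%, and CCAAT in 80.5% and 37.4%. In the 24 windows of the 22 tested members that matched, the shares were 79.2% for TTTGAA, 25% for TTTAAA and 70.8% for CCAAT. In the windows of the tested further mitotic genes described below TTTGAA was found in 45.0%, and in those of the tested DNA replication genes in 20.9%. It was also found in 4 of the 6 windows of the housekeeping genes. A match describes the letters only. The stretches from 60 bases before to 50 after the start are shown for 8 members described above or below, chosen because each holds TTTGAA close to the start, 5′ to 3′ on the strand of the gene, with TTTGAA or its reverse complement TTCAAA in capitals. They lie at chr9:22389157-22389266 (Anln, minus strand), chr4:118437294-118437403 (Cdc20, minus), chr6:124830116-124830225 (Cdca3, plus), chr5:30666826-30666935 (Cenpa, plus), chr7:127042371-127042480 (Kif22, minus), chr7:122159375-122159484 (Plk1, plus), chr7:80294391-80294500 (Prc1, plus, 1 of 2 windows) and chr9:83834629-83834738 (Ttk, plus).
Anln: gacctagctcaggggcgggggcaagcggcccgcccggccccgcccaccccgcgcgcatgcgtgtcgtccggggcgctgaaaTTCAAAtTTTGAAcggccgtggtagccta
Cdc20: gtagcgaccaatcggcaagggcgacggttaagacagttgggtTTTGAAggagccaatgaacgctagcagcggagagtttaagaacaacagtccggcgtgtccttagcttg
Cdca3: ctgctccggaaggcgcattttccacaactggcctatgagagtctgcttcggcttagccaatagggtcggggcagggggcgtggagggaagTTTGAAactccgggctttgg
Cenpa: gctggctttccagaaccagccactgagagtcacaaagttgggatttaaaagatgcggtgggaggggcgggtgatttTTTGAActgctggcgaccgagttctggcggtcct
Kif22: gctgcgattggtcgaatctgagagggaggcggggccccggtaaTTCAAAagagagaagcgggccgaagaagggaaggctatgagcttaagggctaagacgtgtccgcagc
Plk1: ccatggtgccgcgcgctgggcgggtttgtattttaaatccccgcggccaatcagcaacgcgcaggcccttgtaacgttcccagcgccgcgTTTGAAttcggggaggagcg
Prc1: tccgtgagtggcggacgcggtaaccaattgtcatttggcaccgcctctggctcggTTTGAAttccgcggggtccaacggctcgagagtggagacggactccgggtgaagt
Ttk: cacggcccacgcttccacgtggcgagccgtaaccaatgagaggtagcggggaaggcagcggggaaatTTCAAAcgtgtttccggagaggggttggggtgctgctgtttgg
In these windows the capitals start at positions 22 and 29 in Anln, -18 in Cdc20, 31 in Cdca3, 17 in Cenpa, -17 in Kif22, 31 in Plk1, -5 in Prc1 and 8 in Ttk, counted from 1 at the first transcribed base and from -1 before it. Of the 22 tested members with a window, 5 held no TTTGAA. Nusap1, Ncaph and Mad2l1, each with a vehicle gap of over 0.5 in both genotypes, held none of the 3 motifs, Birc5, also with such a gap, held only TTTAAA, and Cdc25b held only CCAAT. Bub3, which had no gap, held TTTGAA. Of the 3 genes with calls described below, Prc1 and Ttk held it and Incenp had no window in the table.

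The effect of FA was tested first in each genotype, to ask whether the glucocorticoid changed mitotic transcripts with or without REDD1. No member passed in either comparison (limma, Benjamini-Hochberg over all tested probes). In REDD1 KO epidermis 23 of the 26 genes had a negative and 3 a positive log2 fold change, with a median of -0.40, and 0 were called, while 4.51% of all tested probes were. At an unadjusted p under 0.05 there were 3 members, all lower with FA, and 19.6% of all probes. In wild-type epidermis 19 genes were negative and 7 positive, with a median of -0.21, and 0 were called, against 6.34% of all tested probes. At an unadjusted p under 0.05 there were 2, both lower, and 22.7% of all probes. The median over all tested probes was 0.00 in REDD1 KO and -0.02 in wild-type epidermis.

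Both FA arrays lay below both vehicle arrays for 9 members in REDD1 KO epidermis (Birc5, Cdc25b, Incenp, Kif11, Kif22, Kif23, Ncaph, Ndc80 and Ttk) and for 8 in wild-type epidermis (Bub1b, Bub3, Incenp, Mad2l1, Ncaph, Ndc80, Tpx2 and Ttk). Over all tested probes this held for 26.1% and 28.2%. The opposite order was found for Prc1 and Stmn1 in REDD1 KO and for no member in wild-type epidermis, and for 24.5% and 25% of all probes. In REDD1 KO epidermis neither Ndc80 nor Ttk was above background on either FA array. Ndc80 was also not above it on vehicle replicate 1, nor Ttk on vehicle replicate 2. Their order in that genotype is thus not measured, although the count of 9 includes them. Kif11, also among the 9, was not above background on either FA array, and against vehicle replicate 1 no fall was measured. The largest fitted falls were those of Birc5 in REDD1 KO (-1.08, SE 0.45, limma adjusted p = 0.232) and of Mad2l1 in wild-type epidermis (-0.71, SE 0.35, limma adjusted p = 0.269). The largest fitted positive values were 0.60 for Prc1 in REDD1 KO and 0.52 for Cdc20 in wild-type epidermis, and neither passed (limma adjusted p = 0.267 and 0.622).

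Precision was lower for the members than for other probes. The median standard error of the FA effect within a genotype was 0.36 over the members and 0.19 over all tested probes.

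**Figure D3:**
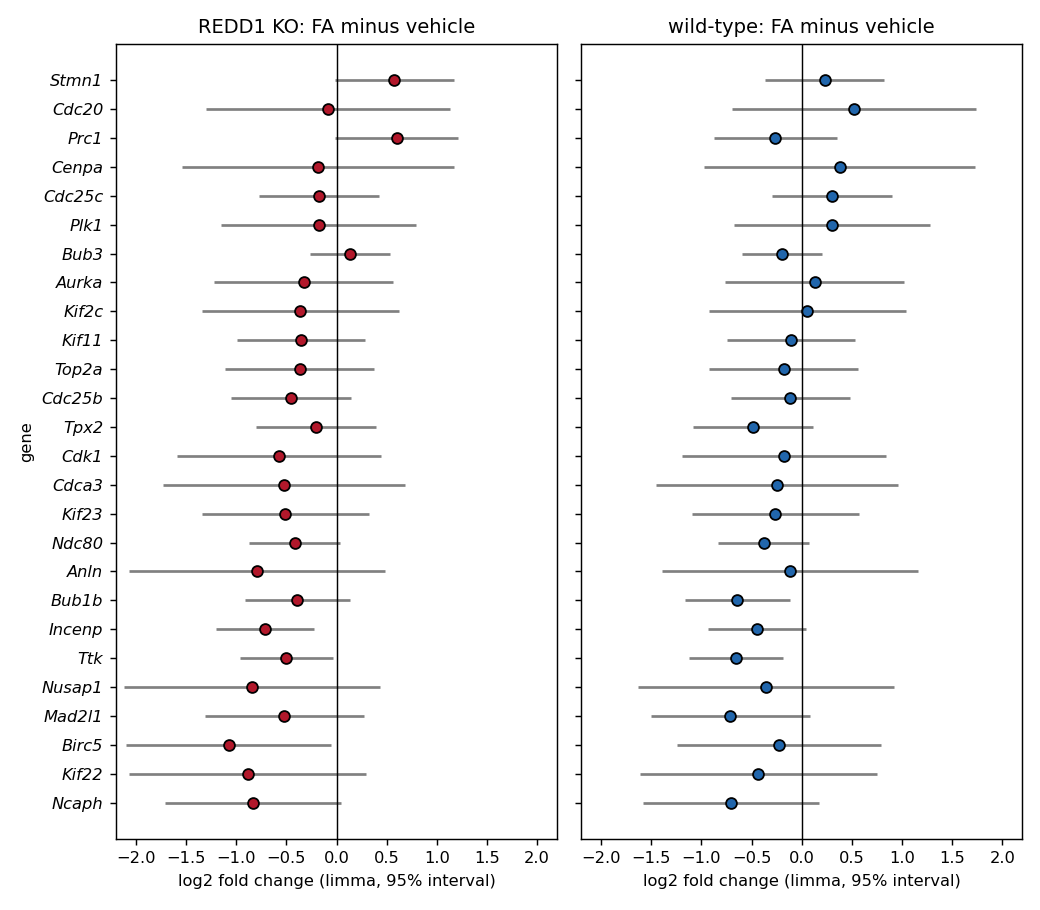
Log2 fold change of FA against vehicle (horizontal axis) with its 95% interval, not adjusted for the number of genes, for the 26 tested genes in REDD1 KO (left) and wild-type epidermis (right), from limma. Most points lie left of 0, at medians of -0.40 and -0.21, and nearly all intervals include 0.

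The outcome depended on which vehicle array FA was set against. In REDD1 KO epidermis the FA mean of the members differed from vehicle replicate 1 by a median of -0.05 and from replicate 2 by -0.85, and it was below them for 14 and 23 of the 26 genes. In wild-type epidermis it differed from vehicle replicate 1 by a median of 0.35 and from replicate 2 by -0.59, and it was below them for 8 and 25 genes.

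Averaged over both genotypes, 2 of the 26 members were called and both fell with FA, against 6.98% of all tested probes called lower and 6.11% called higher. At an unadjusted p under 0.05, 6 members were lower and none higher, and 14.7% of all probes were lower. Incenp, the scaffold that anchors Aurora B in the chromosomal passenger complex, had log2 intensities of 5.16 and 4.98 in REDD1 KO FA, 5.48 and 6.08 in REDD1 KO vehicle, 5.08 and 4.92 in wild-type FA, and 5.31 and 5.58 in wild-type vehicle epidermis. All 4 FA arrays were below all 4 vehicle arrays. The averaged log2 fold change was -0.58 (SE 0.15, limma adjusted p = 0.0381), with -0.71 in REDD1 KO and -0.45 in wild-type epidermis. Ttk (Mps1, the kinase that starts checkpoint signaling at unattached kinetochores) had 4.29 and 4.31 in REDD1 KO FA, 5.03 and 4.58 in REDD1 KO vehicle, 4.49 and 4.53 in wild-type FA, and 4.95 and 5.39 in wild-type vehicle epidermis. It was detected on 3 arrays, both wild-type vehicle arrays and REDD1 KO vehicle replicate 1, and on no FA array. It thus entered the tested set only through the group in which it was high, so its fitted averaged log2 fold change of -0.58 (SE 0.15, limma adjusted p = 0.0310) is not independent of that filter. In wild-type epidermis, where both vehicle arrays measured it, the bound on FA lay 1.42-fold below the vehicle mean. Ttk was not called there (limma adjusted p = 0.0956). This bound rests on vehicle values through which Ttk entered the tested set, so it is not independent support for a fall. Without a filter on detection neither gene was called (limma adjusted p = 0.0877 for Incenp and 0.0699 for Ttk), while Incenp, detected on all 8 arrays, was also called among probes detected on every array (limma adjusted p = 0.0298). Both calls were also lost without background correction, with an offset of 50 and with median centring, and leaving out any 1 FA array raised both limma adjusted p-values above 0.05.

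Several markers of immune cells, though not all, were lower with FA in the same average. Of 6 tested T cell markers 5 were called lower, with a median log2 fold change of -1.31 (limma). Of 7 tested Langerhans cell and macrophage markers 4 were called lower, with a median of -1.29 (limma). Those 4 were Cd207 and the genes of MHC class II presentation Cd74, H2-Aa and H2-Ab1. Il2rb of the T cell list (0.25) and Ptprc (-0.02), Aif1 (-0.24) and Lyz2 (-0.24) of the other list were not called. The summed signal of the T cell markers was 8.18 to 8.93 on the log2 scale in REDD1 KO FA, 9.81 to 10.02 in REDD1 KO vehicle, 9.08 to 9.23 in wild-type FA, and 9.99 to 10.71 in wild-type vehicle epidermis. That of the Langerhans cell and macrophage markers was 9.79 to 10.75 in REDD1 KO FA, 13.05 to 13.17 in REDD1 KO vehicle, 10.54 to 10.81 in wild-type FA, and 12.70 to 13.06 in wild-type vehicle epidermis, and their members Itgax and Mrc1 were below background on all arrays. Of 7 hair follicle markers 3 were called lower, with a median of -0.35, and the medians of the basal and differentiating keratinocyte markers were both 0.01. The part of these cells in the FA effect on the members, and on the replication genes described below, was not tested.

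Leaving out the vehicle replicates in pairs, a choice made after the gap had been seen, gave opposite results for this average. Without vehicle replicate 1 of both genotypes, 18 members were called by limma, all lower with FA, with 4.18% of all tested probes called lower. Without vehicle replicate 2 of both genotypes, 4 members were called, all higher with FA (Cdc20, Cenpa, Plk1 and Stmn1), with 3.35% of all probes called higher. Cenpa was called in both and in opposite directions. In these fits each vehicle group holds 1 array, whose spread is taken to equal that of the FA arrays.

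**Figure D4:**
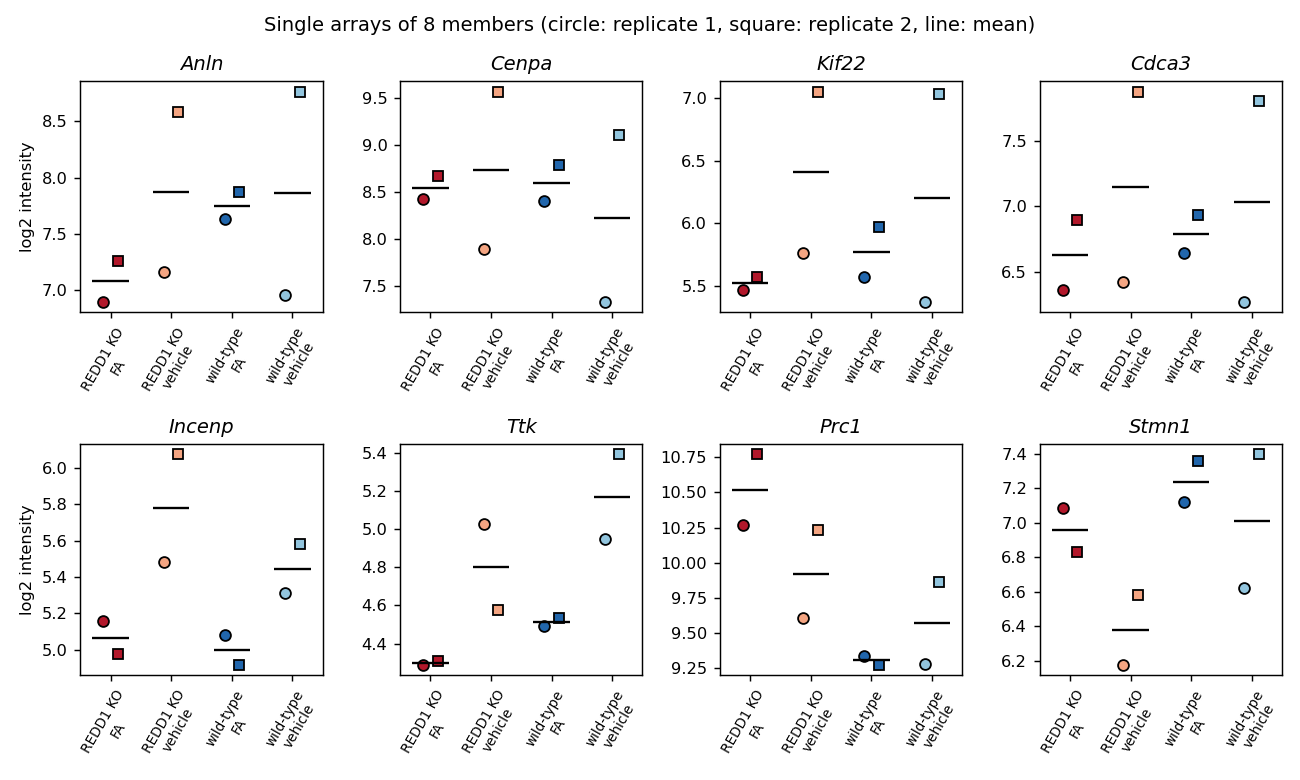
Log2 intensity of 8 members on single arrays (circles, replicate 1; squares, replicate 2; lines, group means) in the 4 groups, each panel on its own vertical scale. Anln, Cenpa, Kif22 and Cdca3 differ most between the vehicle arrays, Incenp and Ttk are lowest in the FA groups, and Prc1 is highest in REDD1 KO FA at 10.27 and 10.77. Ttk was not above background on any FA array.

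REDD1 KO was then compared with wild type under each treatment. In vehicle-treated epidermis no member was called by limma, against 0.51% of all tested probes, and 1 reached an unadjusted p under 0.05 (Stmn1, log2 fold change -0.63), against 8.64%. The median over the members was 0.09. The largest positive value was 0.51 for Cenpa (limma adjusted p = 0.892).

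In FA-treated epidermis Prc1, the protein that cross-links the antiparallel microtubules of the central spindle, was higher in REDD1 KO. It had log2 intensities of 10.27 and 10.77 in REDD1 KO FA, 9.61 and 10.23 in REDD1 KO vehicle, 9.34 and 9.28 in wild-type FA, and 9.28 and 9.86 in wild-type vehicle epidermis. Both REDD1 KO FA arrays exceeded every other array. The log2 fold change between the FA groups was 1.21 (SE 0.27, 95% interval 0.60 to 1.83, limma adjusted p = 0.0339). This was the only call among 26 members, against 3.14% of all tested probes called higher and 4.02% called lower, and at an unadjusted p under 0.05 it was also alone, against 25.4%. Without REDD1 KO FA replicate 2, or without either wild-type FA array, it was no longer called (limma adjusted p = 0.150, 0.137 and 0.173). Replicate 1 of REDD1 KO FA is the array with the high muscle markers, and without it the log2 fold change of Prc1 was 1.46.

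Most other members had the opposite sign in this comparison. The log2 fold change was negative for 21 of 26, with a median of -0.21. Both REDD1 KO FA arrays lay below both wild-type FA arrays for 13 members, against 26.6% of all tested probes. Among them were Anln, Aurka, Birc5, Cdc20, Cdk1, Kif23, Plk1 and Top2a. Both REDD1 KO FA arrays lay above for Bub1b and Prc1, against 29.3%. The 13 also include Ttk, not above background on any FA array, and Ndc80, above it only on wild-type FA replicate 2. The order of the FA arrays is thus not measured for Ttk and Ndc80. None of the negative values passed, and the largest was -0.67 for Anln (limma adjusted p = 0.506).

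The FA effect in REDD1 KO minus that in wild-type epidermis was called for no member, with 0.0305% of all tested probes called, and none reached an unadjusted p under 0.05 in limma, against 9.92% of all probes. Its extremes were 0.86 for Prc1 (95% interval -0.01 to 1.73) and -0.85 for Birc5 (limma adjusted p = 0.507 and 0.694). The median standard error of this difference was 0.51 over the members.

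Genes that act in the same processes but are not members were followed to place these values. Of 73 further mitotic genes, 45 were tested. The median log2 fold change with FA was -0.29 in REDD1 KO and -0.30 in wild-type epidermis. In limma 0 were called in REDD1 KO epidermis, where 5 were lower and 1 higher at an unadjusted p under 0.05, and 2 were called lower in wild-type epidermis, Ncapd3 (a condensin II subunit, -0.93) and Haus1 (a subunit of the augmin complex, -0.90). Averaged over genotypes 5 were lower, the largest change being that of Pbk, a mitotic kinase, at -1.35 (limma adjusted p = 0.0250). Pbk had log2 intensities of 4.76 and 4.72 in REDD1 KO FA, 5.59 and 6.72 in REDD1 KO vehicle, 4.73 and 4.91 in wild-type FA, and 5.40 and 6.84 in wild-type vehicle epidermis, so it had the vehicle gap and was below both vehicle arrays with FA. Foxm1, a transcription factor of G2 and M phase genes, was also called lower in the average (-0.55). On both wild-type FA arrays, at 4.58 and 4.62, Foxm1 lay below the lowest detected signal. The size of its change in that genotype is thus not measured. Between the FA groups Haus1 was higher in REDD1 KO by 1.51 (limma adjusted p = 0.0067), with 7.11 and 7.21 in REDD1 KO FA and 5.47 and 5.84 in wild-type FA epidermis. Replicate 2 exceeded replicate 1 by medians of 0.38 and 0.37 over this list in REDD1 KO and wild-type vehicle epidermis.

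Of 41 tested DNA replication and S phase genes, 8 fell with FA in REDD1 KO and 16 in wild-type epidermis, 0 were called higher (limma, 1 and 0 at an unadjusted p under 0.05), and the medians were -0.52 and -0.71. Uhrf1, which maintains DNA methylation at replication forks, had log2 intensities of 5.37 and 5.23 in REDD1 KO FA, 7.88 and 8.02 in REDD1 KO vehicle, 5.58 and 5.92 in wild-type FA, and 7.58 and 9.12 in wild-type vehicle epidermis. Mcm5, a subunit of the replicative helicase, had 5.47 and 5.56 in REDD1 KO FA, 7.60 and 7.73 in REDD1 KO vehicle, 5.53 and 5.70 in wild-type FA, and 7.44 and 8.64 in wild-type vehicle epidermis. For both genes all FA arrays were below all vehicle arrays, with changes in REDD1 KO of -2.65 and -2.15 and in wild-type epidermis of -2.60 and -2.43. The gap between vehicle arrays over this list was -0.01 in REDD1 KO and 0.55 in wild-type epidermis. The difference from the members, at 0.81 and 0.87, has no test.

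**Figure D5:**
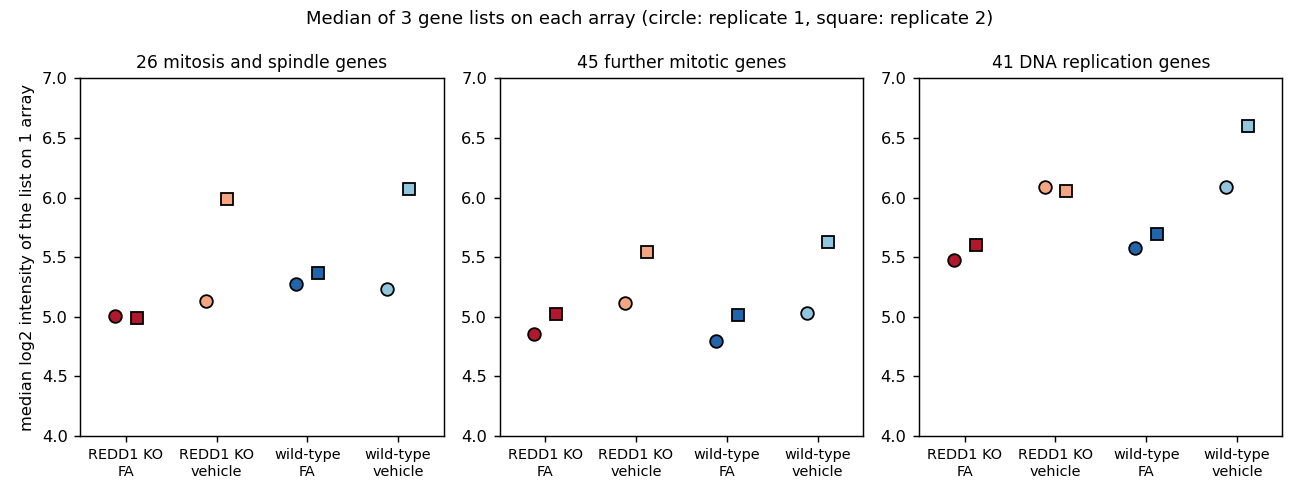
Median log2 intensity (vertical axis) of the 26 tested mitosis and spindle genes, 45 further mitotic genes and 41 DNA replication and S phase genes on each array (circles, replicate 1; squares, replicate 2) in the 4 groups. The members stand at 5.13 and 5.99 on the REDD1 KO vehicle arrays, whereas the replication genes stand at 6.09 and 6.05 there and at 5.47 and 5.60 in REDD1 KO FA.

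Of 25 tested CDK inhibitors, G1 cyclins and repressors of cell cycle genes, 3 rose and 1 fell with FA in REDD1 KO and 2 rose and 3 fell in wild-type epidermis. Gadd45g, a stress-induced inhibitor of Cdk1, had 10.48 and 11.04 in REDD1 KO FA, 7.35 and 7.90 in REDD1 KO vehicle, 10.08 and 10.55 in wild-type FA, and 8.98 and 7.45 in wild-type vehicle epidermis (log2 fold change 3.13 in REDD1 KO and 2.10 in wild-type, limma adjusted p = 0.00626 and 0.0273). Its wild-type vehicle arrays also differed, in the direction opposite to that of the members. Cdkn1c, the CDK inhibitor p57, rose by 1.46 in REDD1 KO and 1.62 in wild-type epidermis, and Ccnd1, the G1 cyclin D1, fell by 1.69 in REDD1 KO and fell by 1.61 in wild-type epidermis.

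Of the 12 marker lists, none had a gap of over 0.5 in this direction between the vehicle arrays of both genotypes. Replicate 2 minus replicate 1 had medians in REDD1 KO and wild-type vehicle epidermis of 0.03 and 0.14 over 11 basal keratinocyte markers, 0.04 and -0.05 over 7 hair follicle markers, 0.19 and -0.91 over 6 T cell markers, 0.16 and -0.24 over 7 Langerhans cell and macrophage markers, and 0.70 and -0.48 over 5 sebaceous gland markers. The widest difference was that of the 7 skeletal muscle markers, with medians of -2.18 in REDD1 KO and 0.00 in wild-type vehicle epidermis. In REDD1 KO, 6 of them were lower by over 0.5 on vehicle replicate 2, so vehicle replicate 1, on which the members were low, had the higher muscle signal. The part of this in the gap was not tested. The medians were -0.02 and 0.18 over 9 markers of differentiating keratinocytes, -0.41 and 0.00 over 5 of fibroblasts, 0.04 and -0.43 over 3 of adipocytes and 0.15 and -0.28 over 3 of endothelium. The single tested marker of melanocytes differed by -0.64 and -0.27 and that of red blood cells by -0.85 and 0.39. Over 8 housekeeping genes they were -0.09 and -0.03. The hair follicle markers Lef1, Lgr5, Lhx2, Msx2 and Shh were below background on all arrays.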

How the data were processed

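The authors deposited signal intensities of 25697 probes and 832 control lines with a detection p-value per probe and array, not background-corrected or normalized, and log2 values that they made with the neqc function of limma (background correction from negative controls, then quantile normalization). Their versions and the slides are not given in these sources, and 2 broken text lines were left out. These deposited log2 values were analysed. Rebuilt from the intensities with 798 negative controls and an offset of 16, they differed by at most 5e-09. Symbols came from the platform annotation, updated to current names.

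Probes with a detection p under 0.05 on at least 2 of 8 arrays were tested in limma 3.58.1 (R 4.3.3), with 1 mean per group, moderated variances (eBayes, 4 residual degrees of freedom, 5.09 prior), two-sided p-values and Benjamini-Hochberg adjustment over all 13131 tested probes. Called means an adjusted p under 0.05. The fit was tested on simulated data. In all, 6 comparisons were made: FA against vehicle per genotype and on average, genotype within treatment, and the interaction of both. The 2 FA effects share no arrays, whereas comparisons of FA and of genotype do share them.

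Members may all be named. Single arrays are given for called members and for those with the largest change in each role group and comparison where none was called, and of other lists at most 4 called genes a comparison are named. The members, the 4 other gene lists and the 12 marker lists were chosen with earlier results of these data known. The number of arrays limits the precision. Alternatives covered the normalization, the offset, the filter, the fit, the probes and each array left out, and a slide block was not run because no slide is given. Replicate numbers were not taken to pair the samples. Plots used matplotlib 3.10.9 (Python 3.11.15).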

Additional observations from a re-analysis of the deposited data

Results flagged for a closer look

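Of the member probes outside the tested set, 3 were detected on a single array, at signals close to the lowest detected on it. The probe of Ccna2 (cyclin A2) was detected only in wild-type FA replicate 1, at a log2 intensity of 4.75. A second probe of Cdc25c was detected only in wild-type vehicle replicate 2, at 4.82. The probe of Cdca8 (borealin, of the chromosomal passenger complex) was detected only in REDD1 KO FA replicate 2, at 4.67. A detection p under 0.05 is reached by about 1 in 20 negative controls, and none of these single detections was tested. Groups of 2 arrays are too small to test for an outlying array, and no member changed in opposite directions with FA in all arrays of the 2 genotypes.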

How the results depend on the processing

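With FA averaged over both genotypes, 2 members were called. The count was 0 without background correction, with an offset of 50, with median centring and without a filter on detection, 1 with probes detected on all 8 arrays and 5 with the replicate block. Leaving out arrays gave 0 to 18 calls, the 18 without vehicle replicate 1 of both genotypes, and the median, -0.36 over the members, ranged from -0.71 to 0.12. Of single arrays, each of the 4 FA arrays left out gave 0, REDD1 KO vehicle replicate 1 gave 4, REDD1 KO vehicle replicate 2 gave 1 (Ttk) and wild-type vehicle replicate 2 gave 1 (Stmn1). Incenp (-0.58) ranged from -0.80 to -0.36, with limma adjusted p from 0.0194 to 0.201, and Ttk (-0.58) from -0.69 to -0.47, with 0.0221 to 0.105.

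Leaving out arrays, 0 to 2 members were called for FA in wild-type and 0 to 4 in REDD1 KO epidermis, with medians from -0.59 to 0.35 and from -0.85 to -0.051. The wild-type effect of Cdc20 (0.52) ranged from -0.36 to 1.40 and that of Prc1 (-0.26) from -0.55 to 0.028, both turning sign with the vehicle array left out. Between genotypes the vehicle median ranged from -0.43 to 0.63 with 0 calls throughout, and Cenpa (0.51) from -0.37 to 1.40. In FA-treated epidermis 0 or 1 member was called, Prc1 (1.21) ranging from 0.96 to 1.46, and 0 were called without a filter on detection, where 40 genes were counted. The median of the difference of the FA effect ranged from -0.71 to 0.29.

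The gap between vehicle arrays was 0.32 in REDD1 KO and 0.40 in wild-type epidermis without background correction, against 0.81 and 0.87, a setting chosen after seeing the data. The cause of these changes was not tested. Medians of the members kept their sign in every other setting of normalization, filter, fit and probes. No label says that the replicate numbers mark shared animals or days. Over all tested probes the deviations of same-numbered arrays correlated at 0.215 to 0.252 for the 3 pairs of groups without wild-type vehicle and at -0.11 to -0.03 for the 3 with it, so the numbers were not taken as a pairing. The replicate block raised the calls of the averaged FA effect to 5 and changed no other count of members. No slide is given, so a slide block was not run. Low signals limit the members: the lowest detected log2 intensity was 4.60 to 4.67 per array, and 14 of 40 genes could not be tested.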
